A study of Mus musculus with 48 samples.

Results

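Plasma cells were compared with germinal center (GC) B cells from the spleens of the same 8 control mice. The comparison used 16 of the 48 libraries of the series, 8 of plasma cells and 8 of GC B cells, chosen by their genotype and cell type labels and paired by the number of the animal. All mice had been immunized through the peritoneum with erythrocytes of sheep (SRBC), a common way to raise GCs. GC B cells went through a magnetic pre-separation for cells without IgD and CD43 and were then sorted for B220, GL7, high CD95 and low CD38 in the absence of IgD. Plasma cells were pre-separated by CD138 and sorted as CD138 positive cells with low B220, and every library was made from 1000 cells. The control mice carried no c-Rel transgene, whereas 8 further mice carried it and gave the same comparison in other animals. The series asks how a gain of c-Rel, an NF-kB subunit, acts in B cells, and the control mice show how the populations differ without it.

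Germinal centers form in B cell follicles after immunization, and their B cells divide fast, mutate and switch their antibody genes, and present captured antigen to T helper cells. The repressor Bcl6 holds this state. A B cell that becomes a plasma cell turns on Prdm1 (Blimp-1), Irf4 and Xbp1, stops dividing, gives up antigen presentation and enlarges its endoplasmic reticulum (ER) to secrete antibody.

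Transcripts were counted as unique molecular identifiers (UMIs), 1 per captured molecule, near the 3′ end. Plasma cell libraries held 481229 to 692336 UMIs and GC B cell libraries 401207 to 594068, with more in the plasma cells of all 8 mice. Outside immunoglobulin genes the direction was the opposite, with 230363 to 337063 UMIs in plasma cells and 397261 to 587360 in GC B cells. There all 8 mice had fewer in plasma cells. UMI counts given below for single genes are not scaled for this difference in depth. Immunoglobulin genes took 50.3% ± 2.06 of the UMIs in plasma cells and 1.10% ± 0.16 in GC B cells (mean ± SD, n = 8 mice, exact paired sign-flip test, two-sided p = 0.0078, adjusted p = 0.0104 over 16 library measures). That p is the smallest that 8 pairs can give. Because of this gap, immunoglobulin UMIs were left out of the library totals, and the TMM factors that correct those totals were computed on the other genes, while immunoglobulin genes were tested in the same fit. Levels are given as CPM, UMIs scaled to a common total in this way. Jchain, which is not annotated as an immunoglobulin gene, stayed in the totals and took 11.04% ± 1.71 of the UMIs outside immunoglobulin genes in plasma cells against 0.137% ± 0.0149 in GC B cells.

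Of 5631 genes tested, 2015 (35.8%) were higher and 1894 (33.6%) lower in plasma cells at an adjusted p of 0.05, so that 69.4% differed in either direction. By more than 2-fold, 950 genes (16.9%) were higher and 667 (11.8%) lower. All 8 plasma cell libraries lay above all 8 GC B cell libraries for 1250 genes (22.2%) and below them for 1080 (19.2%). Counts in gene groups are to be read beside these percentages. Of the genes called, 51.5% were higher, and this share depended on the scaling. It was 29.6% with totals outside immunoglobulin genes but without TMM factors (1326 higher, 3150 lower), and 12.7% with totals over all UMIs (662 higher, 4566 lower). Those scalings moved the median of all genes by -0.49 and by -1.47 on the log2 scale. All values below are therefore relative to the other non-immunoglobulin transcripts of a library, and in bulk libraries fewer cells of a type and less RNA per cell cannot be told apart.

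**Figure D1:**
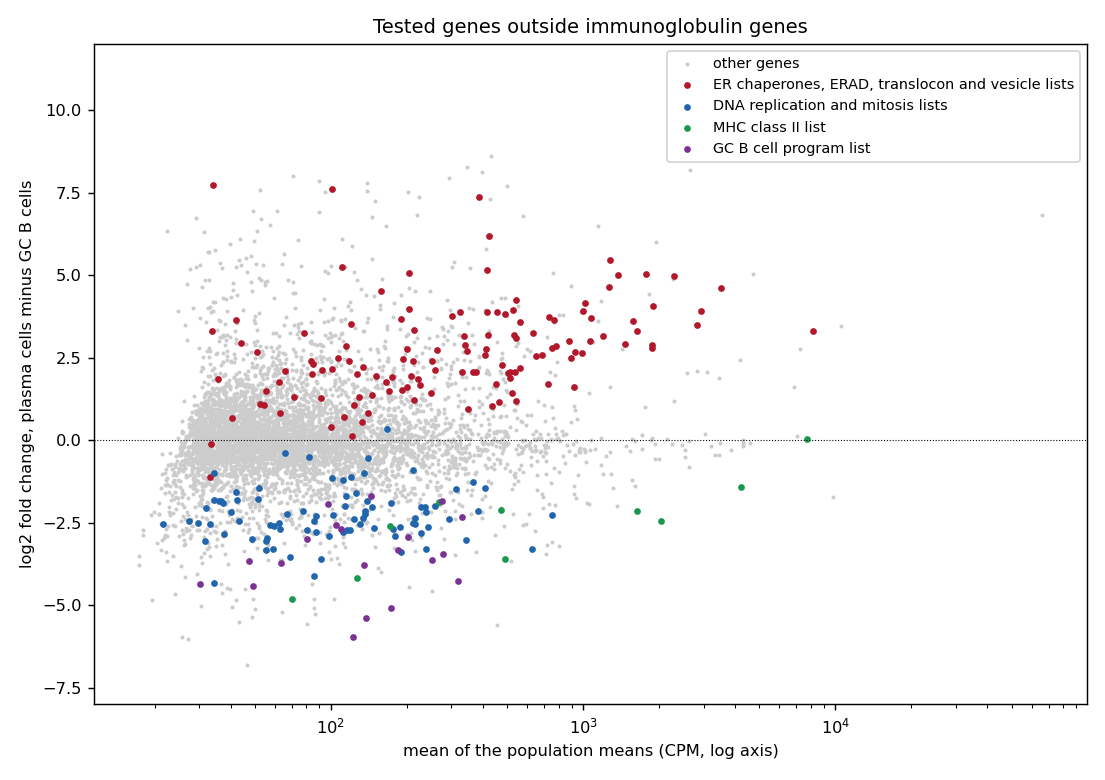
Each point is a tested gene outside immunoglobulin genes, with the mean of the GC B cell and plasma cell levels (CPM, log axis) on the horizontal axis and the log2 fold change on the vertical axis. Genes of the ER and vesicle lists (red) lie mostly above 0, and those of the DNA replication and mitosis lists (blue), the MHC class II list (green) and the GC program list (purple) mostly below it. Cd74, the green point on the 0 line at the right, is the exception of its list under this scaling.

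The genes of the proteins used for sorting checked the labels and are no findings. Sdc1, which encodes CD138, had 4.52 ± 2.87 CPM in GC B cells and 996 ± 95.1 CPM in plasma cells. Fas (CD95) had 87.6 ± 14.6 CPM in GC B cells and 9.83 ± 6.06 in plasma cells, and Ptprc, which encodes the protein that carries the B220 epitope, 156 ± 20.8 and 71.1 ± 23.6. Spn (CD43) had 20.1 ± 7.53 and 174 ± 35.8 CPM, and Cd38 stayed under the expression filter at 17.4 ± 7.11 and 32.4 ± 14.7 CPM. None of these went against a label. The summed level of 9 GC B cell markers was 2264 to 2556 CPM in GC B cell libraries and 91.97 to 168 in plasma cell libraries, and that of 10 plasma cell markers was 3456 to 3998 and 121361 to 167799 CPM, scaled to UMIs outside immunoglobulin genes. Markers of T cells also moved with the populations: all 15 had a higher mean in plasma cells, and their sum was 4.54 to 17.1 CPM in GC B cells and 172 to 231 CPM in plasma cells. In GC B cells 6 of them (Cd4, Cd8a, Cd8b1, Trac, Tcf7 and Il7r) had no UMI, and none was at 0 in plasma cells, where Lat gave 126 and Trbc2 93 of the 470 UMIs. NK cell markers summed to at most 5.11 CPM in GC B cells and 10.2 to 39.1 in plasma cells. Of the 9 NK cell markers, Klrk1, Gzmb and Klrd1 had no UMI in either population. Sums of the other lists in GC B cells and plasma cells were 6.81 to 29.9 and 27.2 to 88.8 CPM for myeloid markers, 31.8 to 66.4 and 18.1 to 68.2 for dendritic cells, 116 to 766 and 8.68 to 1143 for erythroid cells (the last in mouse 1), 0 to 5.03 and 0 to 9.77 for platelets, and 1265 to 1807 and 360.3 to 653 for naive B cells. The dendritic sum rested on different genes: Flt3 gave 189 of its 190 UMIs in GC B cells, and Ccr9 gave 63 of its 86 in plasma cells.

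In the list of plasma cell transcription factors, 6 of the 7 genes tested were higher in plasma cells. These were Prdm1, Irf4, Xbp1 and Creb3l2, and also Ell2 and Zbp1, which are not themselves such factors. The list had a median log2 fold change of 4.50 against 0.00 for all genes. In GC B cells the lowest, median and highest library of Prdm1, which silences B cell genes, had 0, 2.06 and 7.92 CPM. The plasma cell libraries had 97.8, 130.2 and 142 CPM, a log2 fold change of 5.33 ± 0.26 (SE, edgeR quasi-likelihood test, adjusted p = 5.92e-31). Every plasma cell library stood above every GC B cell library. Xbp1, the activator of the secretory program, ran at 210.4, 278 and 359 CPM in GC B cells. It reached 8456, 9223 and 10042 CPM in plasma cells, a log2 fold change of 5.03 ± 0.08 (edgeR, adjusted p = 3.45e-62), again with no overlap. For Irf4, a factor needed for plasma cell fate, the GC B cell libraries had 5.94, 20.6 and 34.7 CPM. Its plasma cell libraries had 317, 449 and 672 CPM (4.50 ± 0.16 on the log2 scale, edgeR adjusted p = 2.5e-25), and their spread was wide but clear of the GC B cells. Creb3l2, an ER-anchored transcription factor that is cleaved to become active, was at 0 to 3.84 CPM in GC B cells, 4 UMIs in all, and at 171 to 373 CPM in plasma cells. Zbtb20, the exception, had 125 ± 21.5 CPM in GC B cells and 112 ± 34.8 in plasma cells, with an adjusted p of 0.295 (edgeR). With totals outside immunoglobulin genes, and with totals over all UMIs, 6 of the 7 were higher and 1 lower. Bhlhe41, below the expression filter and so not tested, had 1 UMI in GC B cells and 53 in plasma cells.

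**Figure D2:**
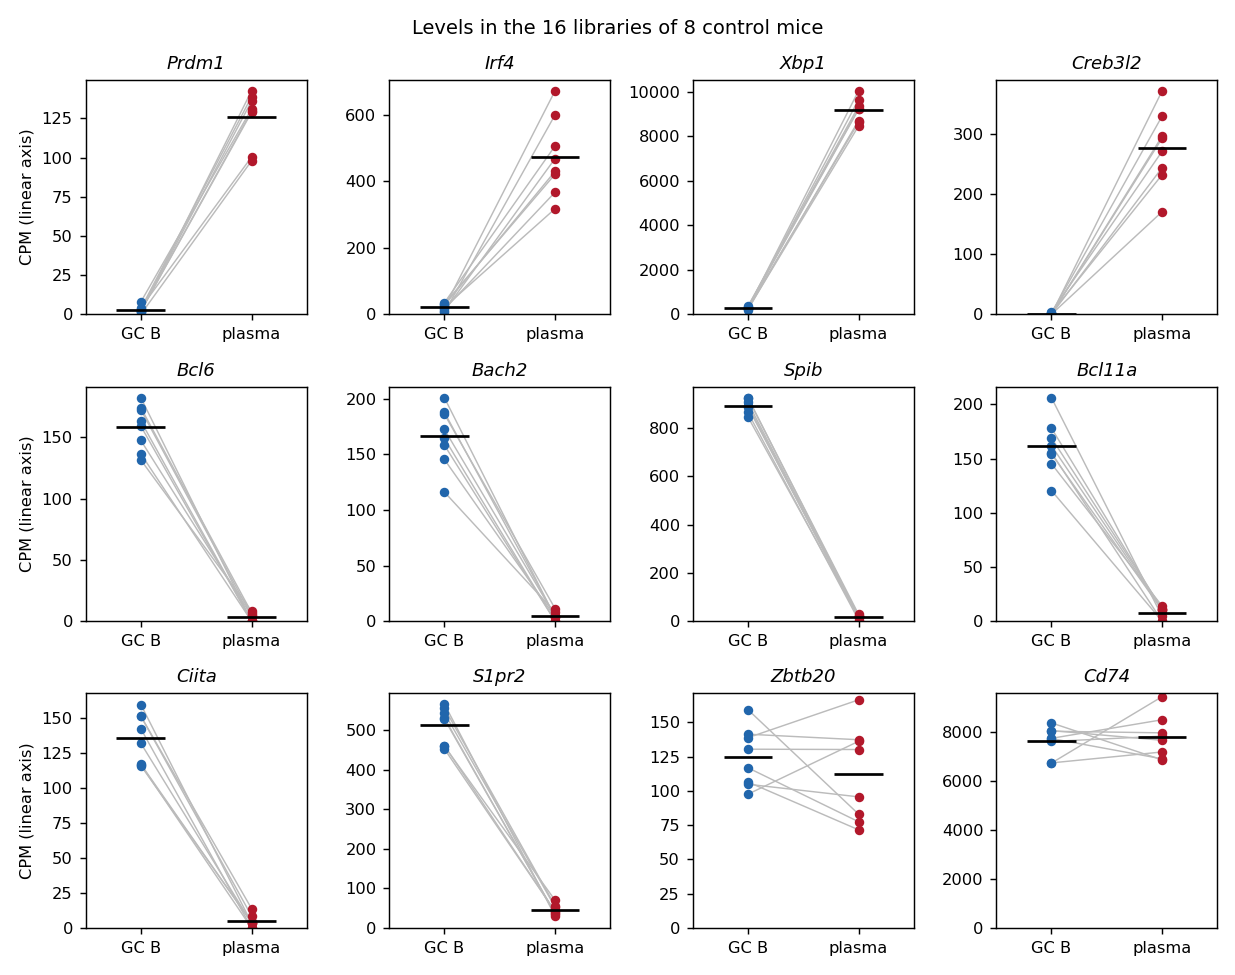
Levels (CPM, linear axes from 0) of 12 genes in each library, GC B cells in blue and plasma cells in red; grey lines join the libraries of a mouse and black bars are means of 8 mice. In all panels but Zbtb20 and Cd74 the populations do not overlap.

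Factors of the B cell and GC state went the other way: 14 of 20 tested were lower in plasma cells and none was higher (median -1.24). Bcl6, the GC repressor, had 132, 161 and 182 CPM in the lowest, median and highest GC B cell library and 0, 2.15 and 8.16 CPM in plasma cells. This was a log2 fold change of -5.57 ± 0.29 (edgeR, adjusted p = 1.91e-29), with all plasma cell libraries below all GC B cell libraries. Bach2, a repressor of Prdm1, was at 167 ± 27.1 CPM in GC B cells and 4.43 ± 3.82 in plasma cells (-5.10 ± 0.26 on the log2 scale). Spib, an Ets factor of B cells, fell from 893 ± 27.5 to 17.9 ± 6.47 CPM (-5.59 ± 0.13), and Bcl11a from 161 ± 24.95 to 7.6004 ± 5.3998 CPM (-4.35 ± 0.24). The 6 members that did not pass were Ebf1, Mef2c, Foxp1, Pou2af1, Relb and Stat6. That depended on the scaling: 19 of the 20 were lower with totals outside immunoglobulin genes and all 20 with totals over all UMIs. Pax5, which keeps B cell identity, was below the filter, with 132 UMIs in the 8 GC B cell libraries and 1 in the 8 plasma cell libraries. Rel itself, the c-Rel gene, was likewise too low to be tested, with 61 UMIs in GC B cells and 1 in plasma cells.

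All 20 tested genes of the GC B cell program were lower in plasma cells, each by more than 2-fold (median -3.54). The list was made of genes known for GC B cells, with earlier results of these data known, so its direction was not an open question. S1pr2, the receptor that confines cells to the GC, had 452, 529 and 566 CPM in the lowest, median and highest GC B cell library. Plasma cell libraries had 30.2, 41.6 and 69.9 CPM (-3.46 ± 0.12 on the log2 scale, edgeR adjusted p = 4.41e-39), without overlap. Rgs13, a brake on chemokine receptor signals, fell from 269.9 ± 46.9 to 6.25 ± 7.09 CPM, Gcsam from 336 ± 63.996 to 9.69 ± 5.83 and the ligand gene Efnb1 from 93.95 ± 21.2 to 3.93 ± 3.49. Of the wider mutation and switch machinery, 9 of 12 tested genes were lower and 1 higher. Hmces, which shields abasic sites in DNA, fell from 1122 ± 90.1 to 167 ± 36.3 CPM (-2.75 ± 0.08), the endonuclease gene Apex1 from 172 to 26.8 CPM and the mismatch repair gene Msh6 from 113 to 25.3 CPM. Supt5, an elongation factor subunit, was the member that rose, from 161 ± 22.6 to 233 ± 38.7 CPM (0.52 ± 0.11, edgeR adjusted p = 9.78e-06), and with totals over all UMIs it was lower in plasma cells. Xrcc5 (adjusted p = 0.623) and Rnf8 (adjusted p = 0.657) did not pass.

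ER chaperones and folding enzymes were higher in plasma cells for all 32 members tested, 30 of them by more than 2-fold, with a median log2 fold change of 3.27. No library of the plasma cells overlapped with the GC B cells for any of the 32. Their promoters are shown because the ER stress element, bound in the unfolded protein response (CCAAT, 9 free bases, then CCACG), marks a small set of them. It was searched on both strands from 250 bases before to 50 after each start (RefSeq, GRCm38.p6) and was found in 37 of 27025 genes with a promoter (0.137%) and in 12 of 4254 tested genes with one (0.282%). Of those 12, 10 were higher by more than 2-fold, 10 of 701 genes of that kind (1.43%), against none of 513 genes lower by more than 2-fold. Within the chaperone list 8 of 28 promoters held it (28.6%), and within the degradation list 2 of 18. The windows are written 5′ to 3′ on the strand of the gene, with the element in capitals; a match contains a CCAAT box by its own letters.
Hspa5 (chr2:34772005-34772063, plus strand): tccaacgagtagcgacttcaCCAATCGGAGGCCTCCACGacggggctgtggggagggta
Hsp90b1 (chr10:86705513-86705676, minus strand): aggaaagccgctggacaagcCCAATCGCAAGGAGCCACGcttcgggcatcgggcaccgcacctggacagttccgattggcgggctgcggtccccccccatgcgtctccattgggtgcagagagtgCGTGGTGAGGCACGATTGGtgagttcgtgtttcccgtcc
Calr (chr8:84847055-84847113, minus strand): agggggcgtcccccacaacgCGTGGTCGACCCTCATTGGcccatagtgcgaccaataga
Canx (chr11:50325780-50325838, minus strand): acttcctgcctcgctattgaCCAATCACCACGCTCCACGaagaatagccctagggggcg
Pdia6 (chr12:17266471-17266529, plus strand): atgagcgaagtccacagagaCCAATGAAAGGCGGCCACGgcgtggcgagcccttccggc
Dnajc3 (chr14:118937807-118937865, plus strand): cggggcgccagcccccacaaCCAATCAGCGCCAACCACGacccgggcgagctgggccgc
Creld2 (chr15:88819500-88819558, plus strand): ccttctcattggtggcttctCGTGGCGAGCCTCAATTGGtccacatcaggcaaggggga
Ero1lb (chr13:12565662-12565720, plus strand): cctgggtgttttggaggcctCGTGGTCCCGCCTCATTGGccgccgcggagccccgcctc
Derl3 (chr10:75893222-75893280, plus strand): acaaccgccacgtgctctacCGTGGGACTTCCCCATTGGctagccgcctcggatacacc
Syvn1 (chr19:6046512-6046570, plus strand): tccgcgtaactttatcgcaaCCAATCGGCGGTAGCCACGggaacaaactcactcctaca

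The 10 windows are those of the genes with the element that were higher by more than 2-fold, so they were chosen after their values were seen. Hspa5, the main ER chaperone BiP, had 361, 457 and 559 CPM in the lowest, median and highest GC B cell library and 4330.4, 5127 and 5844 CPM in plasma cells (3.49 ± 0.07 on the log2 scale, edgeR adjusted p = 2.42e-54). Hsp90b1 (GRP94), with 2 elements in the window, rose from 102 ± 17.4 to 3433 ± 724 CPM (5.03 ± 0.14), and Creld2 from 140.5 ± 29.7 to 4438 ± 892 CPM (4.96 ± 0.10). The lectin chaperone gene Calr rose by 2.89, the disulfide isomerase gene Pdia6 by 2.998, the co-chaperone gene Dnajc3 by 4.14 and the oxidase gene Ero1lb by 1.94 on the log2 scale. The change was smaller for Canx (1.16 ± 0.07) and for the ubiquitin ligase gene Syvn1 (1.18 ± 0.07), and both were lower in plasma cells with totals over all UMIs. The other 2 tested genes with the element were Pan2, at 29.6 and 25.05 CPM with an adjusted p of 0.514 (edgeR), and Hnrnpa3, which fell from 76.9 to 49.5 CPM. Members of the list without the element in this window rose as well. Fkbp11, an ER prolyl isomerase, had 0, 4.03 and 9.57 CPM in GC B cells and 521, 762 and 1032 CPM in plasma cells (7.37 ± 0.16). Pdia4 rose from 11.2 ± 3.02 to 836 ± 304 CPM (6.17 ± 0.13), and Dnajb9, a co-chaperone of BiP, from 22.4 ± 5.14 to 811 ± 99.3 CPM (5.16 ± 0.11). Selenom, an ER selenoprotein gene, had 3 UMIs in GC B cells and 398 in plasma cells, a ratio of 286 (95% exact interval 97.3 to 1395) that covers counting error only.

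**Figure D3:**
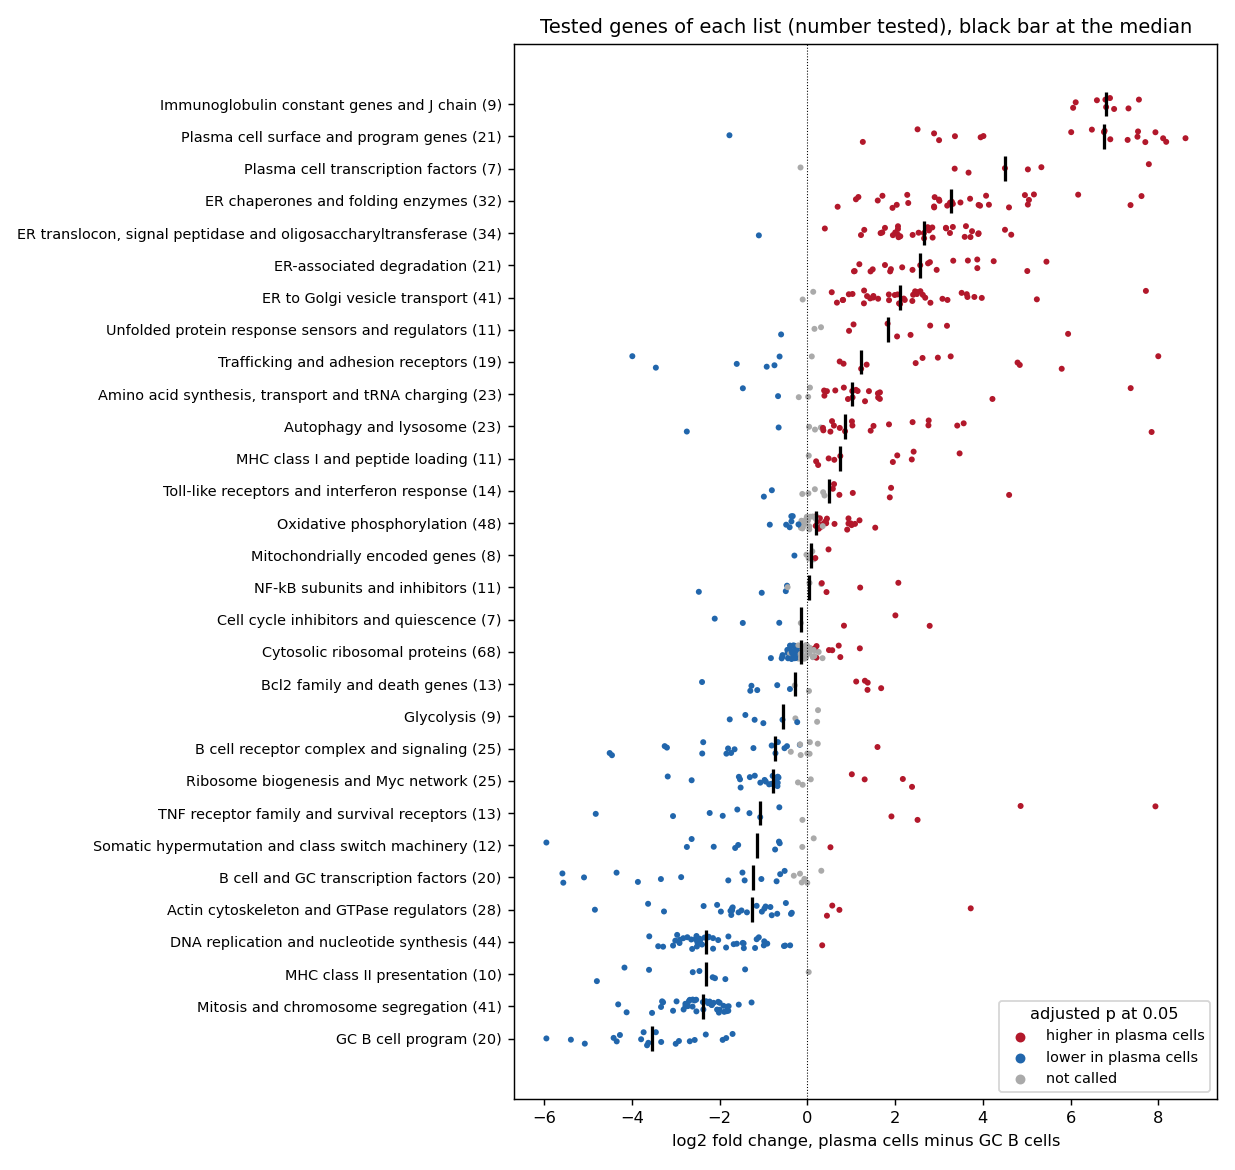
Log2 fold changes of the tested genes of 30 lists, 1 point per gene, with black bars at the list medians and the number tested in brackets. Points are red where higher and blue where lower in plasma cells at an adjusted p of 0.05; medians run from -3.54 for the GC program to 6.81 for immunoglobulin constant genes and J chain.

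Genes of the rest of the secretory route were also higher. Among subunits that bring proteins into the ER and modify them there (translocon, signal peptidase and oligosaccharyltransferase), 33 of 34 tested were higher and 1 lower (median 2.66). Ssr4, a translocon-associated subunit, had 78.8, 94.6 and 126 CPM in the lowest, median and highest GC B cell library and 1828, 2407 and 2813 CPM in plasma cells (4.65 ± 0.08, edgeR adjusted p = 4.31e-59). Ssr2, of the same complex, rose by 3.89, Tram2 by 4.50 and the signal peptidase gene Sec11c by 3.90 on the log2 scale, none of them with overlap. Tusc3, an oligosaccharyltransferase subunit, was the exception and fell from 45.5 ± 8.48 to 20.6 ± 7.58 CPM (-1.11 ± 0.24, adjusted p = 4.34e-05). All 21 tested genes of ER-associated degradation, which clears misfolded proteins, were higher (median 2.57), and with totals over all UMIs 15 were higher and 3 lower. Edem2, which trims mannose from misfolded glycoproteins, had 40.3 to 73.8 CPM in GC B cells and 2105 to 2992 CPM in plasma cells (5.45 ± 0.08). Derl3, a channel subunit, rose by 5.01, the adaptor gene Sel1l by 4.25 and Selenos by 3.87.

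Vesicle transport between ER and Golgi was higher for 39 of 41 tested genes (median 2.11), by more than 2-fold for 33, and with totals over all UMIs 25 were higher and 8 lower. Kdelr3, a receptor that returns ER proteins, had no UMI in any GC B cell library and 52.9, 64.97 and 85.9 CPM in the lowest, median and highest plasma cell library. Against a floor of 3 UMIs over the GC B cell libraries it was at least 95.7-fold higher. Sec24d, a cargo adaptor of COPII coats, rose from 5.63 ± 3.94 to 216 ± 40.3 CPM (5.23 ± 0.21), Tmed3 by 3.97 and the cargo receptor gene Lman1 by 3.81. Sec24b (35.1 and 31.7 CPM) and Ykt6 (116 and 126 CPM) did not pass. In the list of sensors and regulators of the unfolded protein response, 8 of 11 tested were higher and 1 lower (6 and 5 with totals over all UMIs). Ern1, the sensor IRE1 alpha that splices Xbp1 RNA, had 0 to 4.099 CPM in GC B cells, 4 UMIs in all, and 65.1 to 102 CPM in plasma cells. Atf6, the sensor cleaved in the Golgi, rose from 18.6 ± 5.41 to 171 ± 39.9 CPM (3.18 ± 0.17), Ppp1r15a by 2.80 and Ddit3 (CHOP) by 2.35. The 1 lower member was Eif2a, at 43.9 and 28.7 CPM. It encodes the initiation factor eIF2A, not the eIF2 alpha subunit, and is no sensor of this response. The sensor gene Eif2ak3 (PERK) did not pass.

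The 8 immunoglobulin constant genes tested and Jchain, which links IgM and IgA into polymers, were all higher in plasma cells, as were all 38 variable genes tested, by 5.20 to 7.76 on the log2 scale. Ighm had 1549.9, 2157 and 3052 CPM in the lowest, median and highest GC B cell library and 202829, 359776 and 474662 CPM in plasma cells (7.32 ± 0.14, edgeR adjusted p = 4.32e-26). Jchain had 976 to 1378 and 102707 to 173191 CPM (6.81 ± 0.10), and Igkc 2280.3 to 3360.0 and 233266 to 325140.0 CPM (6.60 ± 0.10). The SE was larger for the switched isotypes: Igha rose by 7.56 ± 0.44, Ighg1 by 6.12 ± 0.53, Ighg2b by 6.79 ± 0.35, Ighg2c by 6.90 ± 0.35 and Ighg3 by 6.99 ± 0.39. Iglc2, a lambda constant gene, rose by 6.06 ± 0.30. The IgG genes are close in sequence, so reads could be divided between them in an unknown way.

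Isotype use was also compared as shares of the heavy chain constant UMIs, 2225 to 4222 per GC B cell library and 179709 to 241475 per plasma cell library. Ighm took 39.4% ± 4.86 in GC B cells and 42.3% ± 9.80 in plasma cells (exact sign-flip test, two-sided p = 0.430, adjusted p = 0.491 over 8 shares). Igha took 17.0% ± 2.22 and 22.8% ± 9.70, Ighg2b 16.2% ± 2.70 and 13.5% ± 6.74, Ighg2c 12.8% ± 3.60 and 10.4% ± 3.73, and Ighg3 5.33% ± 1.68 and 5.49% ± 4.55. For Ighg1 the lowest, median and highest GC B cell library had 6.67%, 8.68% and 10.5%. Its plasma cell libraries had 1.01%, 4.35% and 10.6% (exact p = 0.0625, adjusted p = 0.167), lower in 5 of 8 mice. No share passed the adjusted threshold, but the SD among mice was larger in plasma cells for 6 of the 7 heavy chain genes. Ighe, the exception, took 0.398% ± 0.121 in GC B cells and 0.0278% ± 0.0524 in plasma cells, lower in all 8 mice (exact p = 0.0078, adjusted p = 0.0625). With 8 pairs and 8 shares a single share could not pass, since its smallest p of 0.0078 adjusts to 0.0625. Its counts were small in GC B cells, 91 UMIs in all against 464 in plasma cells. Igkc was 83.8% ± 3.35 of the light chain constant UMIs in GC B cells and 88.2% ± 2.98 in plasma cells (exact p = 0.0625, adjusted p = 0.167). Naive B cell libraries of the same mice gave a similar mix, with means of 49.0% Ighm, 18.4% Igha, 11.5% Ighg2b and 8.05% Ighg1. Immunoglobulin genes took 2.03% of their UMIs. The source of the switched transcripts in naive libraries was not tested, nor whether GC B cell libraries share it.

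**Figure D4:**
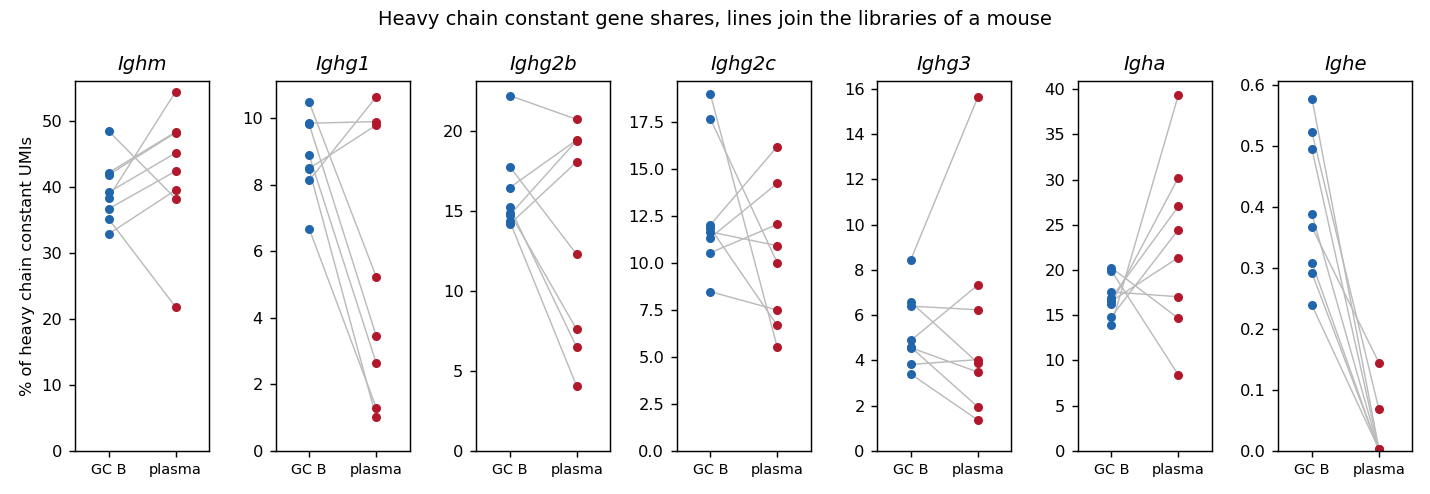
Share of each heavy chain constant gene among the heavy chain constant UMIs of a library (%), GC B cells in blue and plasma cells in red, with lines joining the libraries of a mouse. Ighg1 spans 6.67 to 10.5% in GC B cells and 1.01 to 10.6% in plasma cells, and Ighe is lower in plasma cells in all 8 mice.

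Genes of cell division were lower almost throughout. Of the DNA replication and nucleotide synthesis genes, 43 of 44 tested were lower (median -2.30), and of the mitosis genes all 41 tested, each by more than 2-fold (median -2.38). Mcm3, a subunit of the replicative helicase, had 149, 166 and 201 CPM in the lowest, median and highest GC B cell library and 4.07, 14.5 and 21.5 CPM in plasma cells (-3.61 ± 0.20, edgeR adjusted p = 8.67e-28). Uhrf1, which copies DNA methylation at replication, fell from 348 ± 45.2 to 32.4 ± 12.3 CPM (-3.40 ± 0.14) and the chromatin assembly gene Chaf1b from 99.02 ± 11.5 to 11.1 ± 9.99. Pold2, a polymerase delta subunit, was the exception with 147 ± 24.3 and 186 ± 29.9 CPM (0.34 ± 0.11, adjusted p = 0.00524), and it was lower in plasma cells with totals over all UMIs (-1.15) and did not pass with totals outside immunoglobulin genes (-0.15, adjusted p = 0.192). Cenpe, a kinetochore motor, had 45.5, 68.2 and 86.4 CPM in GC B cells and 0, 0 and 10.5 CPM in plasma cells (-4.32 ± 0.36). The tubulin-binding gene Stmn1 fell by 4.12, the kinesin gene Kif20a fell by 3.54 and Kif23 fell by 3.34 on the log2 scale, none with overlap. For 40 of the 41 mitosis genes and 39 of the 44 replication genes every plasma cell library lay below every GC B cell library.

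Promoters of mitotic genes are known for the CHR element, at which the DREAM complex represses them in resting cells. Its core TTTGAA, on either strand, was present in 30 of 43 mitosis promoters (69.8%) and in 20.2% of all promoters. Among promoters of tested genes the share was 14.5%, with 24.0% for genes lower and 11.6% for genes higher by more than 2-fold. The core is short, so many matches arise in any set of that length. The windows below show the core in capitals in 4 genes whose match lies before the start, chosen after the values were seen.
Cdc20 (chr4:118437344-118437386, minus strand): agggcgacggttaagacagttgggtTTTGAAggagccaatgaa
Cdk1 (chr10:69352913-69353008, minus strand): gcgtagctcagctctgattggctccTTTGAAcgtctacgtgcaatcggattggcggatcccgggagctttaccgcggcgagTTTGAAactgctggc
Ccnb2 (chr9:70421691-70421746, minus strand): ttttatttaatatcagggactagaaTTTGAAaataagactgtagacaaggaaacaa
Ube2c (chr2:164769875-164769928, plus strand): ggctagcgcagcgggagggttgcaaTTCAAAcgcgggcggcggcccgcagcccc
Cdc20, an activator of the anaphase ligase, fell from 273 ± 58.5 to 72.2 ± 40.4 CPM (-1.92 ± 0.14). Ccnb2, a mitotic cyclin, fell by 2.68, Cdk1, the mitotic kinase, fell by 2.26 and Ube2c, which works with the anaphase ligase, fell by 2.01 on the log2 scale.

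Inhibitors of division were mixed, with 3 of 7 tested higher and 3 lower (2 and 5 with totals over all UMIs). Cdkn1b (p27) had 0 to 15.4 CPM in GC B cells and 36.7 to 71.6 CPM in plasma cells (2.79 ± 0.29), and Btg2 rose from 168 ± 26.6 to 676 ± 108 CPM (2.005 ± 0.09). Btg1 fell from 53.98 ± 3.31 to 12.2 ± 8.04 CPM and Cdkn2d (p19) from 138 ± 20.3 to 50.01 ± 12.2 CPM. In the Myc network and ribosome biogenesis list 18 of 25 tested were lower and 4 higher. Max, the partner of Myc, fell by 1.54, Nhp2 fell by 1.56 and Mxd3 fell by 3.19, whereas Mxd4, another Max partner, rose from 64.8 ± 13.1 to 291 ± 29.3 CPM (2.17 ± 0.12) and the spermidine synthase gene Srm from 84.004 ± 16.5 to 445 ± 48.1 CPM.

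MHC class II presentation was lower for 9 of 10 genes (median -2.31), each by more than 2-fold. Ciita, the master activator of these genes, had 116, 137 and 159.8 CPM in the lowest, median and highest GC B cell library and 0, 3.68 and 13.9 CPM in plasma cells (-4.80 ± 0.27, edgeR adjusted p = 4.98e-27). H2-Oa, a subunit of the peptide loading inhibitor, fell by 4.17, H2-DMb2 fell by 3.61 and H2-DMb1 fell by 2.62. The chains that display peptide fell less, H2-Aa with 3459 ± 179 and 629 ± 91.6 CPM (-2.46 ± 0.07) and H2-Eb1 with 2676 ± 201 and 596 ± 39.1 CPM (-2.16 ± 0.07). Cd74, the invariant chain, is a target of the same activator and was the exception. It had 6743, 7752 and 8387 CPM in the lowest, median and highest GC B cell library and 6875, 7759.6 and 9460.3 CPM in plasma cells (0.03 ± 0.07, adjusted p = 0.733), with overlapping libraries and the higher value in plasma cells in 4 of 8 mice. Its call depended on the scaling and the filter: it was lower in plasma cells with totals outside immunoglobulin genes (-0.46, edgeR adjusted p = 6.8e-09), over all UMIs (-1.46, 1.9e-28) and without an expression filter (-0.16, 0.042). Promoters of class II genes hold a Y box, whose core is a CCAAT sequence. CCAAT or its reverse was in all 7 promoters of the list that RefSeq gave, and in 41.1% of all promoters. It is shown in capitals in 6 of them, chosen after the values were seen.
H2-Aa (chr17:34287842-34287896, minus strand): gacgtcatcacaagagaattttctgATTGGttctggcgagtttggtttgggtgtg
H2-Eb1 (chr17:34305783-34305861, plus strand): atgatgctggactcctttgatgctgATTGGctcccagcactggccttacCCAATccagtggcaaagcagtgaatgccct
H2-DMb1 (chr17:34153105-34153159, plus strand): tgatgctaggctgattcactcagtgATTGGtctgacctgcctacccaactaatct
H2-DMb2 (chr17:34145134-34145188, plus strand): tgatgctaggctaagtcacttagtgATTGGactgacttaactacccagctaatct
H2-Oa (chr17:34092311-34092365, plus strand): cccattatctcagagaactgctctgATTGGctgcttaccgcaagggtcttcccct
H2-Ob (chr17:34238823-34238877, plus strand): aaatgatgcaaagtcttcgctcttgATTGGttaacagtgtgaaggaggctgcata
H2-Ob, the partner chain of H2-Oa, fell from 421 ± 40.3 to 113 ± 30.2 CPM (-1.87 ± 0.11).

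MHC class I genes and their peptide loading partners were higher for 10 of 11 tested (median 0.75), a direction that split to 6 higher and 3 lower with totals outside immunoglobulin genes and to 5 and 6 with totals over all UMIs. The 5 that rose by more than 2-fold rose under each scaling. B2m, the light chain of class I, had 1143, 1856 and 2304 CPM in the lowest, median and highest GC B cell library and 16021, 19402 and 21913 CPM in plasma cells (3.47 ± 0.08, edgeR adjusted p = 1.18e-51). H2-K1 rose from 1338 ± 304 to 7037 ± 673 CPM and H2-D1 from 1212 ± 158 to 4992 ± 433, although reads of these near copies could be shared. Tapbp (tapasin) rose from 253 ± 15.5 to 1318 ± 113 CPM (2.38 ± 0.07). Psmb8, an immunoproteasome subunit, did not pass, at 1543 ± 86.6 and 1588 ± 258 CPM.

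Antigen receptor signaling genes were lower for 17 of 25 tested and higher for 1. With totals outside immunoglobulin genes 24 were lower and 1 higher, and with totals over all UMIs 24 were lower and 0 higher. The inhibitory receptor Cd22 had 323, 372 and 465 CPM in the lowest, median and highest GC B cell library and 10.1, 16.9 and 25.8 CPM in plasma cells (-4.46 ± 0.16, edgeR adjusted p = 1.44e-39). Cd72 fell by 4.51, the complement receptor gene Cr2 fell by 3.26 and Ms4a1 (CD20) fell by 3.21. Cd81, a partner of the coreceptor, rose from 637 ± 76.4 to 1919 ± 148 CPM (1.60 ± 0.07). The 7 members that did not pass were Fcgr2b, Btk, Blnk, Plcg2, Bcl10, Lat2 and Rasgrp3.

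Plasma cell surface and program genes were higher for 20 of 21 tested (median 6.76). The list was made of genes known for plasma cells, with earlier results of these data known, and holds the gate gene Sdc1. Its direction was therefore not an open question. Tnfrsf17 (BCMA), the receptor through which plasma cells receive survival signals, had 0, 2.04 and 4.302 CPM in the lowest, median and highest GC B cell library and 403, 531 and 834 CPM in plasma cells (7.93 ± 0.18, edgeR adjusted p = 2.48e-51). Ly6c2 rose from 17.8 ± 4.21 to 5275 ± 927 CPM (8.18 ± 0.10) and its near copy Ly6c1 from 1.97 ± 2.22 to 859 ± 108 CPM (8.62 ± 0.17), where counts may be divided between the pair. Tmem176a rose by 8.11 ± 0.16. Cd37, a tetraspanin, was the exception and fell from 350.4 ± 44.7 to 102 ± 29.6 CPM (-1.78 ± 0.11). Of the TNF receptor family and survival receptors, 4 of 13 tested were higher and 8 lower, among them the gate gene Fas. Tnfrsf13b (TACI) rose from 117 ± 29.2 to 656 ± 55.5 CPM and the shared cytokine receptor subunits Il6st (gp130) and Il2rg by 4.86 and 1.91. Cd40, which receives T cell help, fell from 115 ± 11.9 to 24.1 ± 9.99 CPM (-2.23 ± 0.20), the cytokine gene Lta fell by 4.83 and Traf5 fell by 1.93.

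Trafficking and adhesion receptors were higher for 12 of 19 tested and lower for 6, and with totals over all UMIs for 8 and 10. Cxcr5, which draws cells to follicles, had 248, 319.8 and 329 CPM in the lowest, median and highest GC B cell library and 12.9, 16.3 and 25.1 CPM in plasma cells (-3.99 ± 0.16, edgeR adjusted p = 3.37e-35). Ccr10, a mucosal homing receptor, had 1 UMI in GC B cells and 286 in plasma cells (75.5 to 283 CPM per library), a ratio of 618 (95% exact interval 110.0 to 24480.0). Selplg, the selectin ligand PSGL-1, rose from 14.1 ± 8.77 to 811 ± 67.2 CPM (5.80 ± 0.15). The integrin gene Itgb7 rose from 4.27 ± 2.81 to 131 ± 53.7 CPM. Cd2 fell by 1.61 and Icam1 fell by 0.93. T cells also express Selplg, Itgb7, Il2rg and Ly6c2, and the T cell marker sums of 172 to 231 CPM in plasma cells and 4.54 to 17.1 in GC B cells moved with them; their part in these genes was not tested.

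Survival genes of the Bcl2 family split into 5 higher and 6 lower of 13 tested (0 and 8 with totals over all UMIs). Mcl1, on which plasma cells depend, rose from 167 ± 16.4 to 414 ± 48.2 CPM (1.31 ± 0.09, edgeR adjusted p = 2.83e-22), its antagonist Bcl2l11 (BIM) from 30.2 ± 8.88 to 79.2 ± 20.98 CPM, and with totals over all UMIs neither passed (-0.17 with an adjusted p of 0.0771 and -0.10 with 0.618). Cflar, an inhibitor of caspase 8, rose by 1.68 ± 0.18. Bcl2a1b, one of several near copies, fell by 2.40, Bid fell by 1.30, Bak1 fell by 1.28 and Casp9 fell by 1.15. Bcl2 itself was below the filter, with 5 UMIs in GC B cells and 142 in plasma cells. NF-kB subunits and inhibitors gave 4 higher and 4 lower of 11 tested, and 1 and 9 with totals over all UMIs. The higher count was 2 without mouse 1 and with DESeq2, and the counts were 1 and 3 in mice 1 to 4 alone and 5 and 2 in mice 9 to 12 alone. Nfkbia, the inhibitor IkB alpha and an NF-kB target, had 213, 284 and 351 CPM in the lowest, median and highest GC B cell library and 953, 1082 and 1640.5 CPM in plasma cells (2.07 ± 0.07, adjusted p = 5.42e-40), without overlap. Tnfaip3 (A20) was at 19.97 ± 5.17 and 45.1 ± 24.1 CPM (1.20 ± 0.25) and did not pass with totals over all UMIs (-0.27, edgeR adjusted p = 0.294). Nfkb1 fell by 1.04 and Nfkbid fell by 2.48. In the Toll-like receptor and interferon list 7 of 14 tested were higher and 2 lower (2 and 11 with totals over all UMIs). Bst2 (tetherin) rose from 15.7 ± 7.74 to 393 ± 72.4 CPM and the kinase gene Irak1 by 1.91, while Irf5 fell by 0.81 and Ifngr1 fell by 0.99.

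Amino acid synthesis, transport and tRNA charging genes were higher for 18 of 23 tested and lower for 2, whereas with totals over all UMIs 2 were higher and 15 lower. Pycr1, which makes proline, had 0, 1.95 and 7.66 CPM in the lowest, median and highest GC B cell library and 365, 453 and 495 CPM in plasma cells (7.37 ± 0.19, edgeR adjusted p = 9.62e-48). Slc3a2, the heavy chain of large amino acid transporters, rose from 119 ± 10.7 to 2227 ± 555 CPM (4.22 ± 0.09). The asparagine synthetase gene Asns rose by 1.65 and the tRNA synthetase gene Yars by 1.65. The serine and folate enzymes Psat1 and Mthfd2 changed by -1.47 and -0.67, and Shmt2, Aars and Gars did not pass (adjusted p = 0.905, 0.114 and 0.639).

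Autophagy and lysosome genes were higher for 18 of 23 tested and lower for 2, and with totals over all UMIs for 7 and 14. Wipi1, which binds the forming autophagosome, had 2 UMIs in GC B cells and 350 in plasma cells (106 to 261 CPM per library), a ratio of 378 (95% exact interval 104 to 3133). Ctsb, Ctsd and Ctss, which encode cathepsins, rose under each scaling, Ctsb from 119 ± 7.83 to 1415 ± 129 CPM (3.56 ± 0.08), Ctsd by 3.42 ± 0.11 and Ctss by 2.76 ± 0.11. Tfeb, an activator of lysosome genes, fell from 60.1 ± 4.38 to 8.77 ± 3.81 CPM (-2.75 ± 0.27), and another cathepsin gene, Ctsh, from 367 ± 34.8 to 232 ± 64.1 CPM. Atg12 (adjusted p = 0.476), Atg16l1 (0.205) and Becn1 (0.78) did not pass.

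Of 20 glycolysis genes in the table, 9 passed the expression filter, of which 6 were lower and none higher. Without the filter 9 of the 20 were lower and 4 higher. Ldha, which makes lactate, had 535 to 717 CPM in GC B cells and 150.3 to 257 CPM in plasma cells (-1.77 ± 0.09), Tpi1 fell by 1.42, Eno1 fell by 1.21 and Gpi1 fell by 1.01. Oxidative phosphorylation gave 20 higher and 8 lower of 48 tested with a median of 0.19, but 8 higher and 29 lower with totals outside immunoglobulin genes and 0 and 47 with totals over all UMIs. Ndufa1 rose from 172 ± 19.8 to 507 ± 71.1 CPM and Cox6b1 fell from 81.2 ± 34.1 to 43.7 ± 16.8. Of 8 tested mitochondrially encoded genes 2 were higher and 1 lower (median 0.09), but 0 and 6 with totals outside immunoglobulin genes. Ribosomal protein genes, many with near copies in the genome, lay near the median of all genes, with 8 higher and 31 lower of 68 tested at a median of -0.15, but 3 higher and 59 lower with totals outside immunoglobulin genes, and the higher count was 5 without mouse 1. Actin cytoskeleton genes and GTPase regulators were lower for 24 of 28 tested (median -1.27). Actg1, a cytoplasmic actin, fell from 323 ± 24.9 to 33.3 ± 13.998 CPM (-3.27 ± 0.15), the actin bundler Lcp1 fell by 2.37, the severing protein gene Gsn fell by 3.63 and Rgs2 fell by 4.85. Capg, which caps actin filaments, rose from 24.6 ± 8.19 to 327 ± 33.4 CPM (3.72 ± 0.14), and Vim, Rgs10 and Rgs14 rose by 0.57, 0.44 and 0.73 but were lower with totals over all UMIs.

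**Figure D5:**
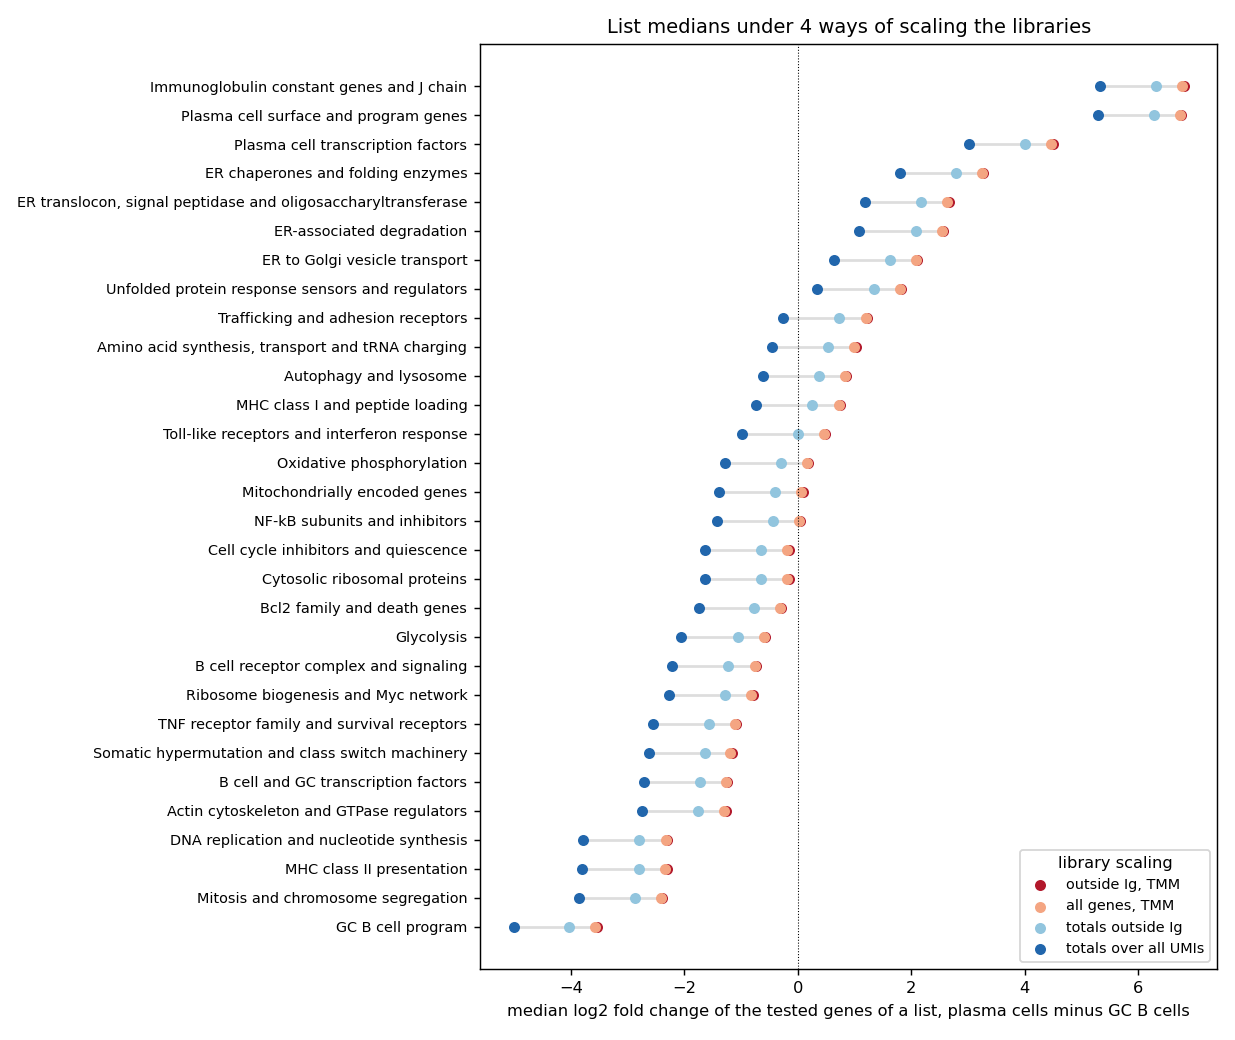
Median log2 fold change of the tested genes of each list under 4 ways of scaling the libraries (colours). Totals over all UMIs (dark blue) shift every list to the left by about the same amount. Lists with smaller positive medians change sign, such as trafficking (1.22 to -0.258), amino acid synthesis (1.02 to -0.46), autophagy (0.857 to -0.612) and MHC class I (0.749 to -0.732). The ER lists stay above 0 and the GC, mitosis and MHC class II lists below it.

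Among all tested genes, those with the largest log2 fold changes at 50 CPM or more included several outside the lists. Ckap4, a membrane protein that shapes ER sheets, had 0, 0.717 and 5.94 CPM in the lowest, median and highest GC B cell library and 612, 665 and 876 CPM in plasma cells (8.29 ± 0.18, edgeR adjusted p = 1.34e-52). Hepacam2 had 1 UMI in GC B cells and 200 in plasma cells, a ratio of 432 (95% exact interval 76.6 to 17140.0). H1fx, a linker histone gene, had 396 UMIs in GC B cells (69.4 to 123 CPM per library) and 1 in plasma cells, a ratio of 183 (95% exact interval 32.7 to 7261) toward GC B cells. The atypical chemokine receptor gene Ackr4 had 228 UMIs and 1, a ratio of 106 (95% exact interval 18.8 to 4188). Havcr1 (TIM-1) had 215 and 1, a ratio of 99.6 (95% exact interval 17.7 to 3951), and the Polycomb gene Phf19 359 and 3, a ratio of 55.4 (95% exact interval 18.8 to 270.0). Gatm, which makes the precursor of creatine, fell from 95.4 ± 14.2 to 1.82 ± 3.78 CPM (-5.35 ± 0.35), Cpne5 fell by 5.26, Emid1 fell by 5.20 and the adaptor gene Sh2b2 fell by 5.10. No plasma cell library reached the lowest GC B cell library for any of these lower genes.

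The 8 c-Rel transgenic mice gave the comparison again with other animals. There 2263 of 6182 genes (36.6%) were higher and 2194 (35.5%) lower in plasma cells. Of the 2015 genes higher in control mice 1790 were higher and 9 lower in transgenic mice, and of the 1894 lower ones 1676 were lower and 4 higher. Of the 950 and 667 genes past 2-fold in control mice, 840 and 579 passed it in the same direction in transgenic mice and none in the opposite one. The difference between genotypes was itself tested as an interaction and passed for 150 of 7017 genes (2.14%), with a more positive change in transgenic mice for 49 and a more negative one for 101. The main regulators were not among them: the difference (transgenic minus control) was -0.12 ± 0.15 for Xbp1 (edgeR, adjusted p = 0.802), -0.07 ± 0.23 for Irf4 (0.938), -0.56 ± 0.52 for Prdm1 (0.699) and 1.10 ± 0.71 for Bcl6 (0.527). Nfkbia rose by 2.07 in control and by 0.82 in transgenic mice on the log2 scale, a difference of -1.25 ± 0.14 (SE, adjusted p = 1.45e-06). Pycr1 differed by -2.21 ± 0.41 (adjusted p = 0.000237), Ighm by -1.46 ± 0.30 (0.018) and B2m by -0.57 ± 0.10 (8.67e-05), each with a smaller rise in transgenic mice.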

How the data were processed

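Spleen B cell populations were measured by bulk SCRB-seq, which counts UMIs, per the labels' protocols. The authors deposited 1 table of UMI counts for 20007 genes in 48 libraries, and the submitters' processing notes name STAR and GRCm38.p5. For the STAR version, the annotation and the collapsing of UMIs, nothing is given in the sources used here. Symbols and coordinates came from GENCODE M21 (19701 genes). The other 306 took 0.424% of all UMIs.

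Both genotypes carried 1 more allele in common, which is not reported here, and some genes of the lists were not analysed here.

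Counts were compared in R 4.3.3 with edgeR 4.0.16: robust quasi-likelihood fit of 16 libraries with the mouse as a block, filterByExpr, Benjamini-Hochberg threshold 0.05, and glmTreat for changes beyond 2-fold. Libraries were scaled to UMIs outside the 226 immunoglobulin genes, times TMM factors from non-immunoglobulin genes. CPM use these totals, while marker sums use them without TMM factors. SE are the log2 fold change over the root of its F. In simulated counts (5634 genes), both populations had the same levels but for a small set of genes, with the same dispersion (0.0101) for every gene. There 100% of genes changed 2-fold, 56.5% of those changed 1.5-fold and 0.055% of unchanged genes were called. That setting has no gap in immunoglobulin share and few changed genes, so it does not give the rate of false calls in the real comparison. Library measures and isotype shares were compared by exact sign-flip tests over 8 pairs.

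The same individual label ties both libraries of a mouse together, so they were paired, although deviations from the population means correlated only at -0.000707 to 0.0822 between them. In the titles, all GC B cell libraries carry the suffix A_minus, which no plasma cell library has. The plasma cell library of mouse 9 carries A_plus, as the naive B cell libraries do, that of mouse 10 carries B_minus, and the other 6 carry B_plus. The meaning of the suffixes is unstated, and their effect cannot be told apart from that of the population. Totals outside immunoglobulin genes were 230363 to 337063 UMIs in plasma cells and 397261 to 587360 in GC B cells, without overlap. Genes with few UMIs per library are imprecise.

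Genes named are, in each list, up to 4 per direction with the largest change that passed at a mean of 20 CPM, members that went against their list, up to 12 per direction with the largest change over all genes at 50 CPM, and immunoglobulin constant genes; of these the text describes a part. Genes shown for a promoter match, and genes below the filter, were added after their values were seen. Members and lists were chosen with earlier results of these data known. Promoters are from RefSeq (GRCm38.p6). Alternatives were other scalings, filters, tools (DESeq2 1.42.0, limma 3.58.1), thinning, and subsets of mice.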

Additional observations from a re-analysis of the deposited data

Results flagged for a closer look

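Of 411 sets of 8 values examined, 41 held a library whose gap to its neighbour, over the range of the set, exceeded Dixon's critical value for 8. Chance alone flags about 1 in 20 sets of normally distributed values. That rate does not hold for sets that are 0 in all libraries but 1, which are always flagged. The count of 41 is therefore not to be read against it. Among GC B cells, the highest library stood apart for Efnb1 (141 CPM, mouse 3), H2-Oa (334, mouse 10), Hsp90b1 (142, mouse 12), Pdia6 (293, mouse 12), Sec24d (14.3, mouse 10), Yars (119, mouse 4), Gars (275, mouse 11), Cox6b1 (154, mouse 10) and Ighg1 (756, mouse 9), and for Ccr10 (2.05, mouse 10) and Hepacam2 (2.10, mouse 1), where it held the 1 UMI of the population. The GC B cell library of mouse 12 was the deepest, with 594068 UMIs, 587360 outside immunoglobulin genes, and 12701 genes. On the log2(CPM + 1) scale the summed T cell markers were lowest at 2.47 in mouse 9 and the GC markers at 11.15 in mouse 11, and Ighg2b took 22.2% of heavy chain UMIs in mouse 3.

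Among plasma cells, the highest library stood apart for Ly6c1 (1091 CPM, mouse 12), Supt5 (322, mouse 2), Ern1 (102, mouse 1), Sel1l (1225, mouse 12), Slc3a2 (3468, mouse 12), Cdk1 (94.4, mouse 11), Itgb7 (244, mouse 10), Traf5 (38.6, mouse 3) and Ighg3 (145153, mouse 2). The same held for the rare transcripts H1fx and Ackr4 (4.07 CPM each, mouse 12), Havcr1 (3.49, mouse 9), Phf19 (10.1, mouse 2) and Gatm (10.5, mouse 9). The lowest library stood apart for Apex1 (10.1 CPM, mouse 2), Msh6 (0, mouse 3), Selenom (143, mouse 4), Ssr4 (1828, mouse 4), Shmt2 (143, mouse 4) and Becn1 (106, mouse 1). The summed myeloid markers were lowest at 4.82 in mouse 4, and the erythroid markers highest at 10.16 in mouse 1 (log2(CPM + 1)). Ighg3 took 15.6% of heavy chain UMIs in mouse 2 and Ighe 0.144% in mouse 11.

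The change from GC B cells to plasma cells differed between genotypes for 19 of the genes named (interaction test, transgenic minus control, log2 scale). It was more negative in transgenic mice for Pycr1 (-2.21), Tnfaip3 (-1.82), Ighm (-1.46), Nfkbia (-1.25), Jchain (-0.96), Ctss (-0.94), Il2rg (-0.91), Bcl2l11 (-0.90), Slc3a2 (-0.82), Ly6c2 (-0.74), Icam1 (-0.67), B2m (-0.57), Selenos (-0.50) and H2-K1 (-0.41). It was more positive for Rgs14 (1.10), Mxd4 (0.91), Btg2 (0.75), H2-Eb1 (0.48) and Syvn1 (0.42).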

How the results depend on the processing

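The number of genes called moved most with the scaling and the filter. With totals over all UMIs 662 genes were higher and 4566 lower, with totals outside immunoglobulin genes 1326 and 3150, and with no expression filter (15718 genes tested) 3283 and 3308. By more than 2-fold, totals over all UMIs gave 390 higher and 3438 lower, totals outside immunoglobulin genes 1124 lower, and no filter 1721 higher and 1145 lower. DESeq2 called 1763 and 1737 genes, limma voom 2095 and 1808, and TMM over all genes 1959 and 1965. Leaving out 1 mouse at a time gave 1952 to 1983 higher and 1823 to 1929 lower. Without the mouse block (no pairing) 2016 and 1893 genes were called, the dendritic marker sum differed by -0.652 with an adjusted p of 0.029 by exact permutation (paired 0.0750), and the Ighe share by -0.370 percentage points with 0.00124 (paired 0.0625). Over all UMIs the dendritic sum differed by -1.60 (exact adjusted p = 0.0130) and the myeloid sum by 0.651 (0.0868, against 1.62 and 0.0192 outside immunoglobulin genes). The dendritic sum is nearly all Flt3 in GC B cells and mostly Ccr9 in plasma cells, so it is no measure of a cell type. Among switched isotypes alone Ighe differed by -0.612 points (exact adjusted p = 0.0469). The erythroid sum differed by -2.71 (exact adjusted p = 0.0446) over 8 mice, log2 scale. Leaving out 1 mouse, it ran from -3.43 (without mouse 1) to -2.24 (without mouse 3) and missed the threshold without any mouse but mouse 1. The Ighg3 difference ran from -0.848 (without mouse 2) to 0.561 points and was -0.173 without mouse 3. The cause of these shifts was not tested.

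Signs of single genes reversed as follows, on the log2 scale. With totals over all UMIs these were Cd74 -1.46, Psmb8 -1.45, Xrcc5 -1.32, Supt5 -0.95, Canx -0.32, Syvn1 -0.30, Ykt6 -1.35, Shmt2 -1.46, Gars -1.42, Pold2 -1.15, Atg12 -1.30, Atg16l1 -1.16, Becn1 -1.44, Mcl1 -0.17, Bcl2l11 -0.10, Tnfaip3 -0.27, Vim -0.92, Rgs10 -1.04 and Rgs14 -0.75. With totals outside immunoglobulin genes they were Cd74 -0.46, Psmb8 -0.46, Xrcc5 -0.34, Ykt6 -0.35, Shmt2 -0.47, Gars -0.43, Pold2 -0.15, Atg12 -0.31, Atg16l1 -0.18, Becn1 -0.45 and Rgs10 -0.046. Every other reversal was of a gene that had not passed the test in the main comparison, although Cd74 and Psmb8 passed without a filter (edgeR adjusted p = 0.042 and 0.043). These were Cd74 -0.16, Psmb8 -0.15, Xrcc5 -0.037, Ykt6 -0.051, Shmt2 -0.17, Gars -0.13, Atg12 -0.0089 and Becn1 -0.14 without a filter, Cd74 -0.014, Psmb8 -0.013, Shmt2 -0.026 and Becn1 -0.0046 at 20 CPM and Cd74 -0.0065, Psmb8 -0.0056, Shmt2 -0.019 and Becn1 -0.0038 with DESeq2. TMM over all genes gave Shmt2 -0.012, and thinning gave Shmt2 -0.040 and Gars -0.020. Mice 1 to 4 alone gave Cd74 -0.10, Shmt2 -0.14 and Becn1 -0.052, mice 9 to 12 alone Psmb8 -0.037, Pan2 0.016, Sec24b 0.32, Gars -0.072 and Atg12 -0.075, and all mice but 9 and 10 Rnf8 0.11, Shmt2 -0.13 and Becn1 -0.0046. With 1 mouse left out, Cd74 ran from -0.039 to 0.053, Psmb8 from -0.041 to 0.076, Xrcc5 from -0.068 to 0.30, Rnf8 from -0.26 to 0.084, Sec24b from -0.31 to 0.027, Shmt2 from -0.060 to 0.092, Gars from -0.017 to 0.16 and Becn1 from -0.0016 to 0.080.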
